A study of Mus musculus with 10 samples.

Results

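The Ras, Rap and Ral regulators are the enzymes that switch these small GTPases on or off, and 38 of the 24453 genes in the count table were taken as members by their symbols. A member's symbol starts with Rasa1, Rasa2, Rasa3, Rasa4, Rasal, Rasgrp, Rasgrf, Rapgef, Rap1gap, Ralg or Sipa1, or is Rgl1, Rgl2, Rgl3, Nf1, Sos1 or Sos2. Their reads were compared between 2 sorted populations labelled as types of intratelencephalic projection neuron (IT-PN) of the mouse motor cortex, to ask which genes differ between cells that lie together in layer 5 and both project to the opposite hemisphere. The animals were male *Fezf2-Gfp* mice, hemizygous for the transgene (Zfp312-EGFP)CO61GsatMmnc on a Swiss Webster background, in which *Fezf2* regulatory elements drive GFP. A fluorescent cholera toxin subunit b tracer (CTB) was injected into the left motor cortex at postnatal day 23 to 25, and layer 5 of the right motor cortex was dissociated and sorted at postnatal day 28 to 32. *Fezf2+ve* cells carried both GFP and CTB, *Fezf2−ve* cells carried CTB only, and each of 5 animals gave 1 library of each type. The sorting therefore rested on the transgene and the tracer, and not on the RNA of *Fezf2*, which had 1 read over the 10 libraries.

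Small GTPases of the Ras, Rap and Ral families are on when they hold GTP and off when they hold GDP. Guanine nucleotide exchange factors load them with GTP, and GTPase-activating proteins (GAPs) speed the hydrolysis of that GTP. In cortical neurons, Ras signals from growth factor and glutamate receptors to the MAP kinase cascade, Rap regulates adhesion and dendritic spines, and Ral regulates vesicle trafficking through the exocyst. Several of the regulators respond to second messengers such as cAMP, calcium and diacylglycerol.

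For animals 1 to 5, the *Fezf2+ve* libraries held 118134, 107643, 118069, 151591 and 203379 reads on genes, and the *Fezf2−ve* libraries held 167916, 89138, 168711, 211368 and 217738. ERCC spike-in RNA took 2.79% to 46.7% of the reads on genes and spike-ins together, with the highest share in *Fezf2+ve* library 1. Of the 38 members, 36 had at least 1 read in some library, and the Ras GAP *Rasal1* and the Ral exchange factor *Ralgds* had none. Between 11 and 21 members had a read in a *Fezf2+ve* library and between 15 and 24 in a *Fezf2−ve* library, which was 28.9% to 63.2% of the members beside 16.3% to 32.4% of all genes in the table. A read in every library was found for 5 members, namely *Nf1*, *Sos1*, *Rapgef1*, *Ralgps1* and *Sipa1l1*. The members together had 24829 reads, and the Ral exchange factor *Ralgps1* alone had 61.9% of them. *Ralgps1*, *Sos1* and *Nf1* together had 91.7%, whereas 23 members had fewer than 20 reads each. Levels are given as CPM, which are reads scaled to a common library total with TMM factors that adjust for the makeup of each library.

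**Figure D1:**
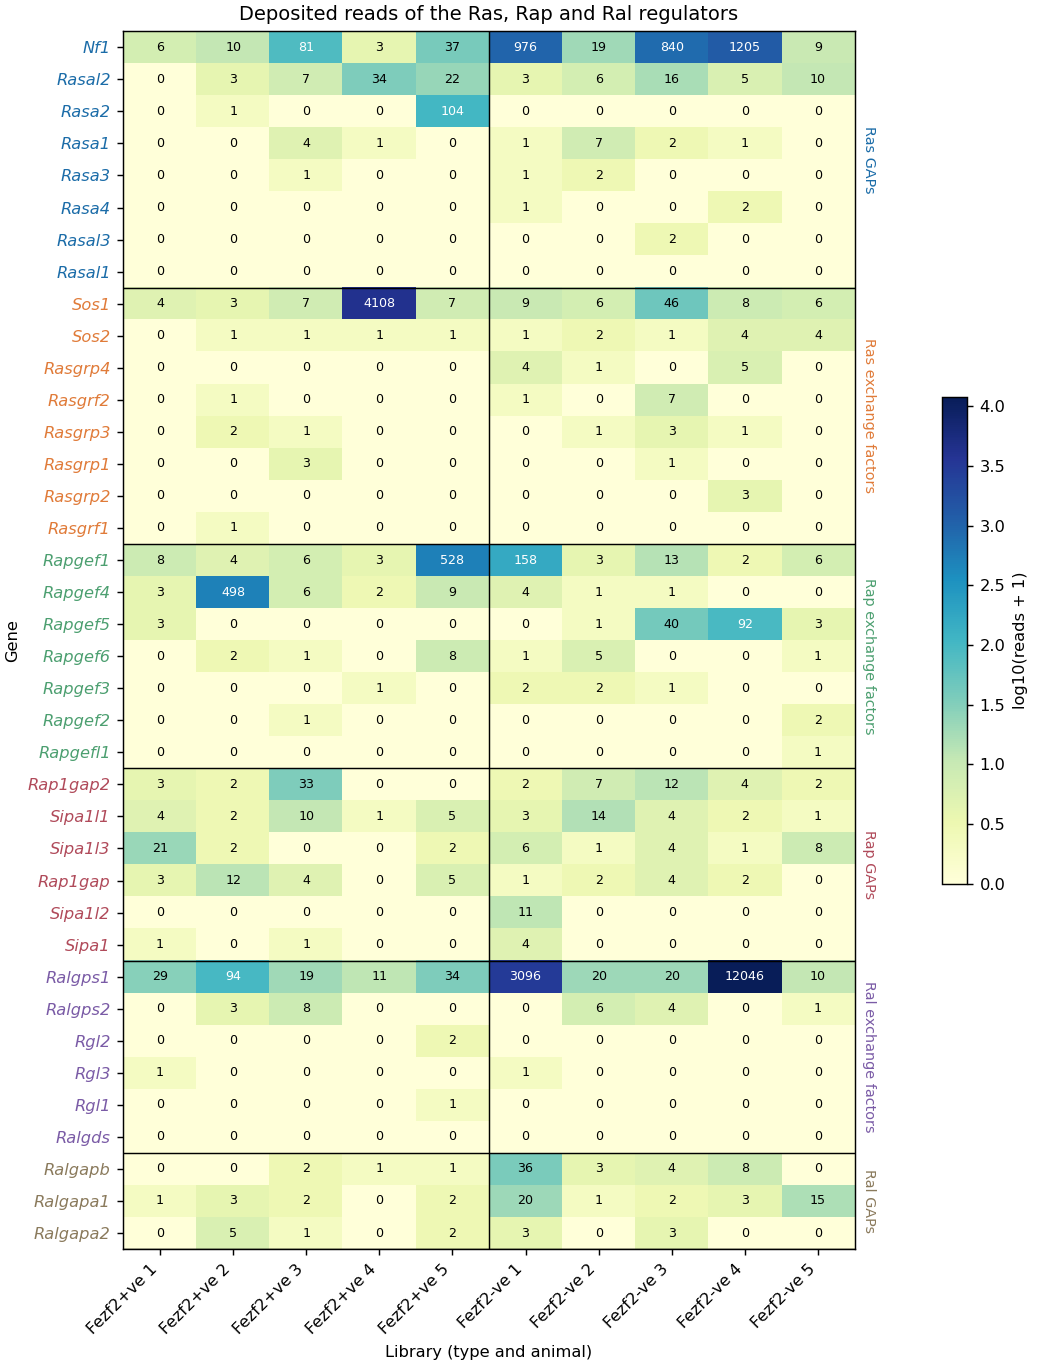
Deposited reads of each of the 38 regulators (rows, grouped by role) in each of the 10 libraries (columns), with the colour on a log10(reads + 1) scale. Single libraries stand out, such as Fezf2-ve 4 with 12046 reads of Ralgps1 and Fezf2+ve 4 with 4108 reads of Sos1.

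With edgeR and the animal as a block, no regulator passed the test between types, whereas DESeq2 with the same block called 1. Of the 38 members, 21 passed the filter on low counts (at least 10 CPM in at least 2 libraries). At an FDR, the p adjusted by Benjamini-Hochberg over all tested genes, at or below 0.1, edgeR called 0 of these 21, beside 0 of all 7409 tested genes (0%). The smallest adjusted p of a member was 0.998 in this test. At an unadjusted p under 0.05 there was 1 member, the Rap exchange factor *Rapgef4*, beside 288 of all tested genes (3.89%). DESeq2 with the same block called 1 of the 7 members to which it gave an adjusted p, *Rapgef4*, and 98 of 1664 genes (5.89%). edgeR without the block also called *Rapgef4*, as 1 of 21 members beside 279 of 7409 genes (3.77%), and gave an unadjusted p under 0.05 to 7 of the 21 members (33.3%) beside 1345 genes (18.2%). The log2 fold change of *Fezf2+ve* over *Fezf2−ve* was positive for 7 of the 21 tested members and for 45.7% of all tested genes. Its median was −0.62 over these members and −0.16 over all tested genes, and with the one tested member that had no read in *Fezf2+ve* set to a bound of 3 reads over the group the median was −0.62 again. Without the block the medians were −0.14 over the members and −0.2 over all tested genes, and 10 of the 21 members were positive. A member passes the filter more readily where it is high in some libraries, so these counts describe the 21 tested members and not all 38. In sorted bulk samples such as these, fewer cells of a type and less RNA per cell cannot be told apart.

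The reads of a member often lay in a single library. Over the 8 members with at least 100 reads, the library with the most reads held a median of 75.3% of the reads of the gene, beside a median of 77.7% over all 1445 genes with at least 100 reads. More than 90% of the reads lay in 1 library for 3 of these 8 members, *Rasa2*, *Sos1* and *Rapgef4*, and for 485 of the 1445 genes (33.6%). The members did not all peak in the same library. *Fezf2−ve* library 4 held the most reads of 7 members, *Fezf2−ve* library 1 and *Fezf2+ve* library 5 those of 5 members each, and every other library those of 2 to 4 members, where ties went to the library named first. *Nf1* and *Rasal2* were the least concentrated of the 8, with 37.8% and 32.1% of their reads in the top library.

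**Figure D2:**
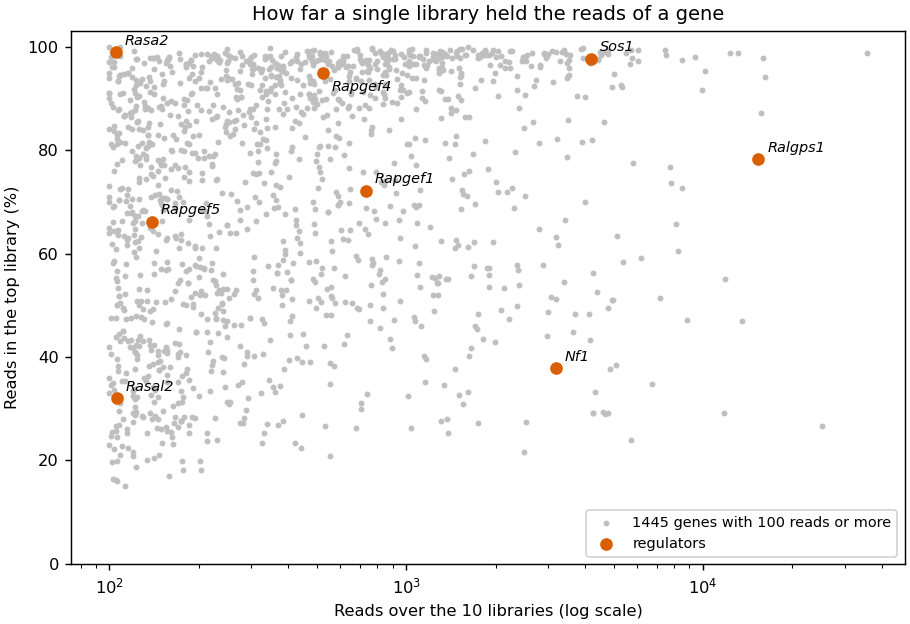
Share of a gene's reads that lay in its top library (vertical axis, percent) against its reads over the 10 libraries (horizontal axis, log scale), for 1445 genes with at least 100 reads (grey) and the 8 regulators among them (orange). Sos1 lies at 97.7% and Nf1 at 37.8%, within the range of the other genes.

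*Ralgps1* and *Nf1* were both high in *Fezf2−ve* libraries 1 and 4, and *Nf1* was also high in library 3 (840 reads), where *Ralgps1* had 20 reads. *Sos1* and *Rapgef4* were the tested members with more than 90% of their reads in 1 *Fezf2+ve* library. Of these 4, *Ralgps1*, *Sos1* and *Nf1* had the most reads of all members, and *Rapgef4* had the smallest unadjusted p by edgeR with the block. The promoters of these 4 members are shown. Each is 300 bases around the annotated transcript start, from RefSeq on GRCm38.p6, written 5′ to 3′ on the strand of the gene, and an entry was found for 36 of the 38 members. Capitals mark matches to the GC box GGGCGG, the CCAAT box CCAAT, the cAMP response element TGACGTCA, the E-box CACGTG and the TATA box TATAAA on either strand, where matches of the GC box may overlap each other.
Ralgps1 promoter, chr2:33371445-33371744, minus strand: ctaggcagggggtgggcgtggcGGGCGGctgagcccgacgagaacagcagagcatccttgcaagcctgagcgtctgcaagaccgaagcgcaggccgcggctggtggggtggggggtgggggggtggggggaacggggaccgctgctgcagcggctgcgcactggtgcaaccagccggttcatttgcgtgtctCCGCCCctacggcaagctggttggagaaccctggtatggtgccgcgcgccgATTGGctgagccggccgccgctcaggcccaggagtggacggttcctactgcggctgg
Nf1 promoter, chr11:79339642-79339941, plus strand: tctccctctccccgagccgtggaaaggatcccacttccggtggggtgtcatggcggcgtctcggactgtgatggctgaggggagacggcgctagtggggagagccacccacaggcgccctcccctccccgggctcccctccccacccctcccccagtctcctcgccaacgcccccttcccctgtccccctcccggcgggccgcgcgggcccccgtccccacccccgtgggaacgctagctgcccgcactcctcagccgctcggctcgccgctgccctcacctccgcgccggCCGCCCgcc
Sos1 promoter, chr17:80480404-80480703, minus strand: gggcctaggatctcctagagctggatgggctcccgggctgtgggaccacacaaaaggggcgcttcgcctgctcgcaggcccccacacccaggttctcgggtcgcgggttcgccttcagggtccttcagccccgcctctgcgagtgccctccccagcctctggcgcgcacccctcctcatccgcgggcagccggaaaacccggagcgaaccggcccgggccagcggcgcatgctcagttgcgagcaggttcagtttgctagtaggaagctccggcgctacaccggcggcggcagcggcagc
Rapgef4 promoter, chr2:71980965-71981264, plus strand: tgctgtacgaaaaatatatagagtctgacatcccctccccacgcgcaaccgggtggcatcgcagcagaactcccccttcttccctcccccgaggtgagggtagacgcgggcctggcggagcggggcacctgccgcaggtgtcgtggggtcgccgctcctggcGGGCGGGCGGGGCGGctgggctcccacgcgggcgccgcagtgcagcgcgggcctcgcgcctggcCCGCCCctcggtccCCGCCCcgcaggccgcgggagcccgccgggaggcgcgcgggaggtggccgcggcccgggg
The *Rapgef4* window held 5 matches to the GC box, that of *Ralgps1* held 2 with 1 CCAAT box, that of *Nf1* held 1 GC box, and that of *Sos1* held none of the motifs. A GC box was found in 35.7% of all 32851 promoters of this length, a CCAAT box in 37.4%, a cAMP response element in 1.79%, an E-box in 7.15% and a TATA box in 13.6%. The 4 windows were 70% to 76.7% G and C, beside a median of 52.7% over all promoters. These matches describe the letters only.

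Among the 8 Ras GAPs, *Nf1* had the most reads. It encodes neurofibromin, a GAP that turns Ras off and whose loss causes neurofibromatosis. Across animals 1 to 5 it had 6, 10, 81, 3 and 37 reads in *Fezf2+ve* and 976, 19, 840, 1205 and 9 in *Fezf2−ve*. *Fezf2−ve* libraries 1, 3 and 4 were above every *Fezf2+ve* library, while *Fezf2−ve* libraries 2 and 5 lay within the *Fezf2+ve* range, so the types overlapped. On the log2(CPM + 1) scale its level was 6.73 ± 1.66 (SD, n = 5) over the *Fezf2+ve* libraries and 10.06 ± 3.35 (SD, n = 5) over the *Fezf2−ve* ones. The level was higher in *Fezf2−ve* in 4 of 5 animals, and the log2 fold change was −3.35 ± 1.91 (SE). The unadjusted p of edgeR with the block was 0.0964 and the adjusted p was 0.998, and DESeq2 gave an adjusted p of 0.114. When 1 animal was left out, the log2 fold change was −4.74 (without animal 5, unadjusted p 0.0315) to −2.17 (without animal 4, unadjusted p 0.261), and without animals 1 and 4 together, an alternative added after the data were seen, it was −0.91, with an unadjusted p of 0.613. *Nf1* spans 242 kb of chromosome 11 (chr11:79339693-79581612, plus strand), and 4 genes in the table lie inside it on the other strand. Those genes, *Omg*, *Evi2a*, *Evi2b* and *AU040972*, had 17, 21, 16 and 0 reads over the 10 libraries, beside 3186 for *Nf1*.

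*Rasal2*, another GAP for Ras, had 32.1% of its reads in its top library, beside 37.8% for *Nf1*. It had 0, 3, 7, 34 and 22 reads across *Fezf2+ve* libraries and 3, 6, 16, 5 and 10 across *Fezf2−ve* libraries. All *Fezf2−ve* values lay within the *Fezf2+ve* range. Its log2 fold change was 0.09 ± 1.92 (SE), with an unadjusted p of 0.962 by edgeR, and it was −0.75 without animal 4 and −0.44 without animal 5. *Rasa2*, a Ras GAP of the GAP1 family, had 0, 1, 0, 0 and 104 reads across *Fezf2+ve* libraries and 0 in every *Fezf2−ve* library. Its reads lay almost entirely in *Fezf2+ve* library 5, and it was not tested, because 10 CPM was reached in that library alone. *Rasa1*, the first Ras GAP described, had 16 reads over 6 libraries. *Rasa3*, *Rasa4* and *Rasal3* had 4, 3 and 2 reads in all.

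The 8 Ras exchange factors were led by *Sos1*, which the adaptor Grb2 brings to activated receptor tyrosine kinases. Across animals 1 to 5, *Sos1* had 4, 3, 7, 4108 and 7 reads in *Fezf2+ve* and 9, 6, 46, 8 and 6 in *Fezf2−ve*. *Fezf2+ve* library 4 held 97.7% of its reads, where it was the gene with the fifth most reads and took 2.71% of all reads on genes. Outside that library the *Fezf2+ve* values were at or below 7 reads, against 6 to 46 reads in *Fezf2−ve*. The level was higher in *Fezf2−ve* in 3 of 5 animals. The log2 fold change with the animal as a block was −0.02 ± 0.96 (SE, unadjusted p = 0.986 by edgeR), whereas without the block it was 6.85 ± 2.16 (SE), with an adjusted p of 0.101. Without animal 4 the log2 fold change was −0.97, and it was 0.12, 0.41 and 0.68 without animals 1, 2 and 3 in turn. *Sos1* spans 86.7 kb (chr17:80393751-80480453, minus strand) and overlaps *Arhgef33*, which had 2 reads.

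*Sos2*, the close paralogue of *Sos1*, had 16 reads, at most 4 in a library. *Rasgrp4*, an exchange factor of the diacylglycerol-responsive family, had no read in any *Fezf2+ve* library and 4, 1, 0, 5 and 0 across *Fezf2−ve* libraries. With *Fezf2+ve* set to a floor of 3 reads over the group, its level came out 2.67-fold lower, with no error put on the *Fezf2−ve* reads. *Rasgrp4* passed the filter through *Fezf2−ve* libraries alone, and the types overlapped at 0 reads. The unadjusted p was 0.119 by edgeR, and DESeq2 gave a log2 fold change of −2.24 ± 3.11 (SE). The 2.67-fold value rests on 10 reads, of which 50% lay in *Fezf2−ve* library 4, and it was not computed without that library. *Rasgrp4* overlaps *Fam98c*, which had 4 reads. The other members of this family, *Rasgrp1*, *Rasgrp2* and *Rasgrp3*, had 4, 3 and 8 reads in all. The calcium-responsive exchange factors *Rasgrf1* and *Rasgrf2* had 1 and 9 reads, of which 7 *Rasgrf2* reads lay in *Fezf2−ve* library 3.

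Of the 7 Rap exchange factors, *Rapgef4* gave the smallest p of all members. It encodes an exchange factor that cAMP activates directly and that is expressed in brain. Across animals 1 to 5 it had 3, 498, 6, 2 and 9 reads in *Fezf2+ve* and 4, 1, 1, 0 and 0 in *Fezf2−ve*. *Fezf2+ve* library 2 held 95% of the reads, and the other 4 *Fezf2+ve* libraries had 2 to 9 reads against 0 to 4. On the log2(CPM + 1) scale its level was 6.40 ± 2.96 (SD, n = 5) over the *Fezf2+ve* libraries and 2.02 ± 1.96 (SD, n = 5) over the *Fezf2−ve* ones. It was higher in *Fezf2+ve* in all 5 animals, and with TMM scaling the types did not overlap for this 1 member, beside 107 of 7409 tested genes (1.44%). Scaled by library size only, the types of *Rapgef4* did overlap. The log2 fold change was 4.17 ± 1.71 (SE), with an unadjusted p of 0.025 and an adjusted p of 0.998 by edgeR with the block. Its adjusted p was 0.0814 by DESeq2, at a log2 fold change of 4.20 ± 1.44 (SE), and 0.0931 by edgeR without the block, at 6.47 ± 1.89 (SE). When 1 animal was left out, it was 2.90 (without animal 2, unadjusted p 0.0922) to 5.68 (without animal 1, unadjusted p 0.0202) by edgeR with the block. *Rapgef4* spans 276 kb (chr2:71981240-72257474, plus strand).

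*Rapgef5*, which activates Rap, had the opposite direction. It had 3, 0, 0, 0 and 0 reads across *Fezf2+ve* libraries and 0, 1, 40, 92 and 3 across *Fezf2−ve* libraries. *Fezf2−ve* libraries 3 and 4 held nearly all of the reads, and the types overlapped through animal 1. Its log2 fold change was −4.48 ± 2.41 (SE), with an unadjusted p of 0.0796 by edgeR and an adjusted p of 0.163 by DESeq2, and the level was higher in *Fezf2−ve* in 4 of 5 animals. Leaving out animal 4 moved the log2 fold change to −2.79 and leaving out animal 1 moved it to −7.23. *Rapgef1*, an exchange factor that adaptors of the Crk family recruit, had 8, 4, 6, 3 and 528 reads across *Fezf2+ve* libraries and 158, 3, 13, 2 and 6 across *Fezf2−ve* libraries. *Fezf2+ve* library 5 and *Fezf2−ve* library 1 were high and the other 8 libraries had 2 to 13 reads, so the types overlapped. Its log2 fold change was 0.27 ± 1.48 (SE), and −0.86 without animal 5 and −0.08 without animal 4. The PDZ-domain exchange factors *Rapgef2* and *Rapgef6* had 3 and 18 reads, the cAMP-activated *Rapgef3* had 6, and *Rapgefl1* had 1.

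Among the 6 Rap GAPs, no library held more than 33 reads of any gene. *Rap1gap2* had 3, 2, 33, 0 and 0 reads across *Fezf2+ve* libraries and 2, 7, 12, 4 and 2 across *Fezf2−ve* libraries. All *Fezf2−ve* values lay within the *Fezf2+ve* range, and the log2 fold change was −0.76 ± 1.40 (SE) with the block and 0.64 ± 1.36 (SE) without it. When 1 animal was left out it was −1.83 to −0.20. *Sipa1l1*, a Rap GAP of the postsynaptic density, had 4, 2, 10, 1 and 5 reads across *Fezf2+ve* libraries and 3, 14, 4, 2 and 1 across *Fezf2−ve* libraries. *Fezf2−ve* library 2 lay above and library 5 below the range of the *Fezf2+ve* libraries, with a log2 fold change of 0.47 ± 1.18 (SE) with the block, −0.14 without it and −0.11 without animal 5. *Rap1gap* and *Sipa1l3* had 33 and 45 reads and log2 fold changes of 1.41 ± 1.39 and −0.62 ± 1.38 (SE), and without the block that of *Sipa1l3* was 0.80. *Sipa1l2* had 11 reads, all in *Fezf2−ve* library 1, and *Sipa1* had 6. These 2 genes were not tested.

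The 6 Ral exchange factors held most of the reads of the whole group, nearly all of them of *Ralgps1*. This gene encodes an exchange factor for Ral that, unlike *Ralgds* and the *Rgl* genes, has no Ras-binding domain. Across animals 1 to 5 it had 29, 94, 19, 11 and 34 reads in *Fezf2+ve* and 3096, 20, 20, 12046 and 10 in *Fezf2−ve*. In *Fezf2−ve* library 4 it was the gene with the most reads of all and took 5.7% of the reads on genes, and in *Fezf2−ve* library 1 it took 1.84%. The other 3 *Fezf2−ve* libraries had 10 to 20 reads, against 11 to 94 reads in *Fezf2+ve*, so the types overlapped. Its level on the log2(CPM + 1) scale was 7.75 ± 0.90 (SD, n = 5) over the *Fezf2+ve* libraries and 10.02 ± 4.83 (SD, n = 5) over the *Fezf2−ve* ones, and it was higher in *Fezf2+ve* in 3 of 5 animals. The log2 fold change was −1.01 ± 2.35 (SE) with the block, with an unadjusted p of 0.674 by edgeR, and −6.36 ± 2.05 (SE) without it, with an adjusted p of 0.103. The direction turned when a single animal was left out, to 0.28 without animal 1 and to 0.29 without animal 4. Without both of these animals, an alternative chosen after seeing the data, it was 1.33. *Ralgps1* spans 238 kb (chr2:33133417-33371486, minus strand), and *Angptl2*, which lies inside it on the other strand, had 2 reads.

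*Ralgps2*, the paralogue of *Ralgps1*, had 0, 3, 8, 0 and 0 reads across *Fezf2+ve* libraries and 0, 6, 4, 0 and 1 across *Fezf2−ve* libraries. *Rgl1*, *Rgl2* and *Rgl3*, which bind active Ras, had 1, 2 and 2 reads, and *Ralgds* had none. The 3 genes of the Ral GAP complex were all tested. *Ralgapb*, the shared beta subunit, had 0, 0, 2, 1 and 1 reads across *Fezf2+ve* libraries and 36, 3, 4, 8 and 0 across *Fezf2−ve* libraries. *Fezf2−ve* library 1 was the highest, and the level was higher in *Fezf2−ve* in 4 of 5 animals. Its fitted difference was −2.24 ± 1.71 (SE) on the log2 scale, with an unadjusted p of 0.206 by edgeR, and it was −3.21 to −1.32 when 1 animal was left out. *Ralgapa1*, a catalytic subunit, had 1, 3, 2, 0 and 2 reads across *Fezf2+ve* libraries and 20, 1, 2, 3 and 15 across *Fezf2−ve* libraries. *Fezf2−ve* libraries 1 and 5 were high, at 97.9 and 81.1 CPM. *Fezf2−ve* library 4, at 22.5 CPM, lay just above the highest *Fezf2+ve* library at 18.9 CPM, and libraries 2 and 3 lay within the *Fezf2+ve* range. The log2 fold change was −1.59 ± 1.35 (SE), with an unadjusted p of 0.25 by edgeR. The other catalytic subunit, *Ralgapa2*, had 14 reads and a log2 fold change of 0.64 ± 1.94 (SE).

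**Figure D3:**
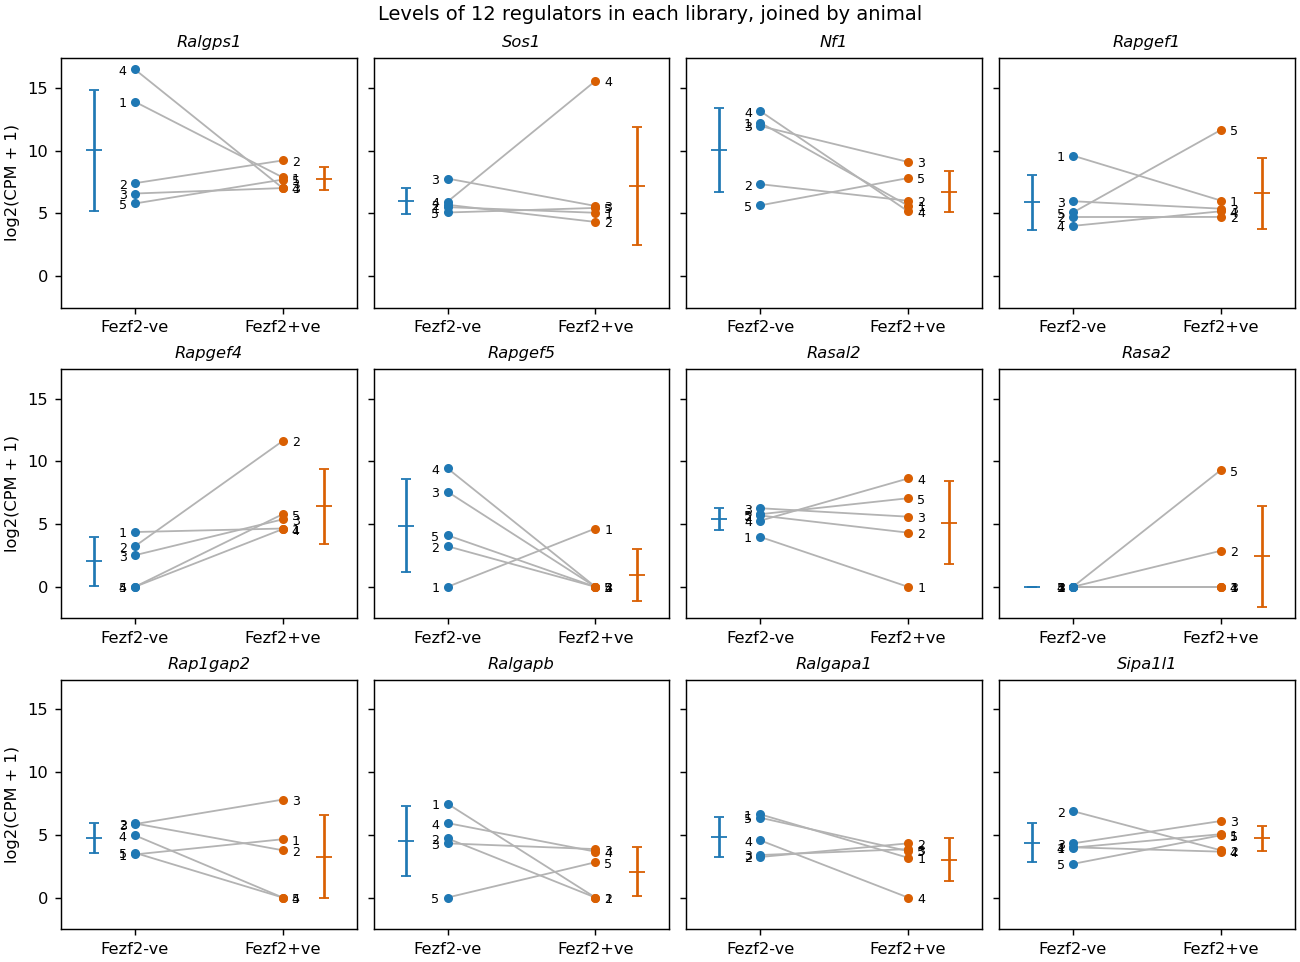
Level of the 12 regulators with the most reads as log2(CPM + 1), with 1 point for each library, lines that join the libraries of an animal and the number of the animal beside each point. Bars beside the points give the mean and SD over 5 libraries of a type, and Rapgef4 is the gene whose 5 lines all go up from Fezf2-ve to Fezf2+ve.

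By role, the summed level of the Ras exchange factors was highest in *Fezf2+ve* library 4 at 47709 CPM, that of the Ral exchange factors in *Fezf2−ve* library 4 at 90360.4 CPM, and that of the Ras GAPs in the same library at 9099 CPM. The Rap exchange factors were highest in *Fezf2+ve* libraries 5 and 2, at 3279 and 3174 CPM, whereas the Rap GAPs ranged from 11.6 to 323 CPM and the Ral GAPs from 7.99 to 289 CPM. Summed over all 38 members, the level was 695, 4087, 1338, 48371 and 4633 CPM in the *Fezf2+ve* libraries and 21264, 922, 4866, 100472 and 427 CPM across *Fezf2−ve* libraries. The mean was 11825 ± 20500.4 CPM (SD, n = 5) over the *Fezf2+ve* libraries and 25590.1 ± 42712 CPM (SD, n = 5) over the *Fezf2−ve* ones, so the types differed by less than the spread between libraries. Without *Ralgps1* the difference of the means turned from −13765 to 7144 CPM (*Fezf2+ve* minus *Fezf2−ve*), and without animal 4 it was −4181 CPM. Libraries 4 of both types had the lowest TMM factors, 0.5681 and 0.6307, which raise their scaled levels.

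**Figure D4:**
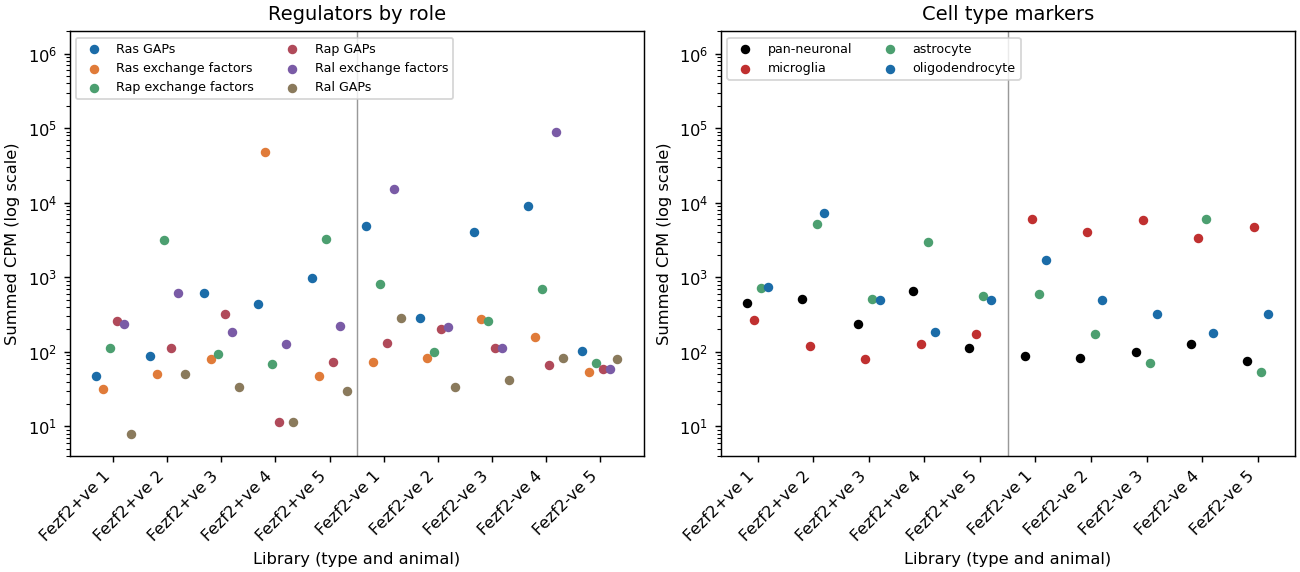
Summed CPM in each library (log scale) of the regulators of each role, on the left, and of 4 lists of cell type markers, on the right. Ral exchange factors reach 90360.4 CPM in Fezf2-ve 4, and microglial markers lie between 3346 and 6063 CPM for Fezf2-ve and between 80.7 and 264 CPM for Fezf2+ve.

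**Figure D5:**
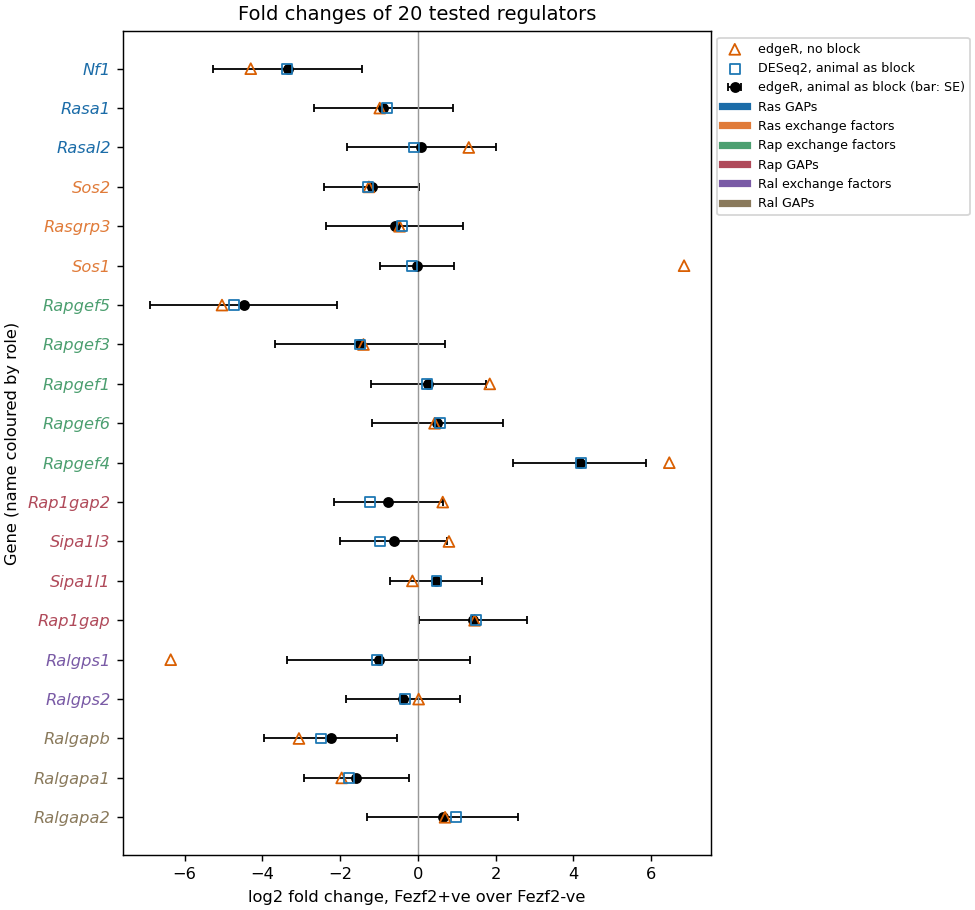
Log2 fold change of Fezf2+ve over Fezf2-ve of 20 tested regulators by 3 fits, with the SE of edgeR with the animal as a block as bars, and gene names coloured by role. Rasgrp4, which had no read in Fezf2+ve, is left out, and Sos1 and Ralgps1 show the widest gap between the fits with the block (-0.02 and -1.01) and without it (6.85 and -6.36).

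The markers of the labelled cells were sparse. Of 8 pan-neuronal markers, 7 had a read and *Nefl* had none, the most abundant was *Map2* with 112 reads, and the list summed to 448, 504, 235, 650.2 and 114 CPM in the *Fezf2+ve* libraries and 88.1, 83.8, 99.2, 128 and 75.7 CPM across *Fezf2−ve* libraries. Of 7 markers of glutamatergic cortical neurons, 6 had a read and *Tbr1* had none, and *Slc17a7* had 11 reads in all, while 588 *Camk2a* reads made it the most abundant. The list summed to 264, 63, 80.7, 0 and 42.1 CPM in the *Fezf2+ve* libraries. It summed to 48.9, 25.1, 2603, 52.5 and 5.41 CPM across *Fezf2−ve* libraries, where library 3 alone was high. Of 7 layer 5 markers, *Crym* had no read, and *Fezf2* and *Bcl11b* had 1 each, and 2041 reads of *Tox* made it the most abundant. Their sums were 95.9, 151, 40.4, 11.6 and 78.2 CPM in the *Fezf2+ve* libraries. Across *Fezf2−ve* libraries they were 58.7, 50.3, 798, 37.5 and 10168 CPM, so libraries 3 and 5 were high and the others lay within the *Fezf2+ve* range. Of 7 markers of GABAergic interneurons, 3 had a read, at most 6 for *Gad2*, and *Slc32a1*, *Pvalb*, *Vip* and *Lhx6* had none, with sums of 0 to 6.02 CPM in *Fezf2+ve* and 0 to 33.5 CPM in *Fezf2−ve*.

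Markers of microglia summed higher in every *Fezf2−ve* library than in any *Fezf2+ve* library. All 15 microglial markers had a read, *Ctss* was the most abundant with 817 reads, and the list summed to 264, 119.6, 80.7, 128 and 174 CPM in the *Fezf2+ve* libraries and 6063, 4115, 5928, 3346 and 4759.5 CPM across *Fezf2−ve* libraries. Each of the 15 had a negative log2 fold change, and 0 were called by edgeR with the block, 11 without it and 11 by DESeq2. Astrocyte markers (7 of 8 with a read, *Gfap* at 0, most reads in *Slc1a2*) summed to 711, 5157, 511, 2961 and 566 CPM in *Fezf2+ve* and 592, 176, 70.9, 6024 and 54.1 CPM in *Fezf2−ve*. Oligodendrocyte markers (7 of 8 with a read, *Opalin* at 0) summed to 735, 7235, 491, 186 and 493 CPM in *Fezf2+ve* and 1683, 494, 326, 180 and 319 CPM in *Fezf2−ve*. Red blood cell markers (5 of 5 with a read, most reads in *Hbb-bs*) summed to 823, 69.3, 13.5, 0 and 0 CPM in *Fezf2+ve* and 3714, 2464, 217, 458 and 10.8 CPM in *Fezf2−ve*. Of these, 4 were tested and 0 had a positive log2 fold change, and 0 were called by edgeR with the block, 0 without it and 2 by DESeq2. Oligodendrocyte precursor markers (5 of 5 with a read, most reads in *Pdgfra*) ranged from 128 to 1782 CPM and endothelial markers (8 of 8 with a read, most reads in *Emcn*) from 7.99 to 587 CPM. The part of these cells in the levels of the regulators was not tested, and the identity of the sorted cells could not be settled from the counts.

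The GTPases on which the regulators act had few reads. Of 13 genes for Ras, Rap and Ral proteins, 12 had a read and 6 were tested, with 0 called by edgeR with the block, 0 without it and 0 by DESeq2. *Rap1b*, one of the main Rap proteins, had 0, 0, 0, 0 and 2 reads across *Fezf2+ve* libraries and 5, 0, 7, 5 and 38 across *Fezf2−ve* libraries. The fit gave a log2 fold change of −4.34 ± 1.60 (SE), with an unadjusted p of 0.0164 and an adjusted p of 0.998 by edgeR. *Rap1b* passed the filter on low counts through *Fezf2−ve* libraries alone, so this p belongs to a gene taken by its high side. *Rala*, the GTPase with the most reads, had 210 of its 231 reads in *Fezf2+ve* library 5. Of 21 effectors and kinases downstream, 20 were in the table and 12 were tested, with 0 called by edgeR with the block, 1 without it and 0 by DESeq2. *Pik3ca*, a catalytic subunit of PI3 kinase, had no read in any *Fezf2+ve* library and 3, 0, 0, 0 and 200 across *Fezf2−ve* libraries. Its unadjusted p was 0.0149 and its adjusted p 0.998 by edgeR, whereas DESeq2 gave an adjusted p of 0.793. *Fezf2−ve* library 5 held 98.5% of its reads, and it passed the filter through *Fezf2−ve* libraries alone. Of 20 other Ras and Rap regulators, such as the *Spred* genes, 16 were tested and 0 were called by any of the 3 fits, and *Gab1* had the most reads, 253 of its 317 in *Fezf2+ve* library 5. Positive log2 fold changes were given by 2 of the 6 tested GTPases, 3 of the 12 effectors and 5 of the 16 other regulators.

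The annotated spans of the members ran from 8.14 to 282 kb, with a median of 105 kb, and the 12 members with the most reads had a median span of 233 kb. Across the 38 genes, which share libraries and depth, span and reads had a Spearman rho of 0.55, given as a description. Chromosome 2 held 7 of the 38 genes, among them *Ralgps1*, *Rapgef1*, *Rapgef4* and *Ralgapb*, whose reads peaked in 4 different libraries. Another gene of the table overlapped 11 members, and none of these overlapping genes had more than 21 reads. Reads came from *Fezf2−ve* libraries alone for 6 of the 38 members, at most 11 reads for any of them, beside 2878 of the 24453 genes in the table (11.8%). They came from *Fezf2+ve* libraries alone for 4 members, beside 1790 genes (7.32%), and these 4 members were *Rasa2*, *Rgl1*, *Rgl2* and *Rasgrf1*.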

How the data were processed

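The 10 libraries were sequenced from amplified RNA, and the methods name no molecular identifiers. Reads were mapped to mm10 by the authors with TopHat2 2.1.1 and counted on RefFlat genes and on ERCC spike-ins with BEDTools 2.26.0, and the deposited tables hold these read counts without normalization. A read was counted on every gene it overlapped, and the use of strand is not given in the sources used here, so overlapping genes cannot be told apart. A deposited table of the authors' own comparison, with fold changes and p-values, was not used.

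Genes that reached 10 CPM in 2 or more libraries were tested with edgeR 4.0.16 in R 4.3.3 (TMM factors, quasi-likelihood test, two-sided, Benjamini-Hochberg adjustment over all tested genes, FDR at or below 0.1), with the animal as a block. Levels are CPM scaled by the TMM factors, with a pseudocount of 1 on the log2 scale. The pairing comes from the sample records, in which each animal gave 1 library of each type. Deviations of libraries of the same animal correlated across genes at 0.0971, −0.00715, 0.0613, 0.0214 and −0.0266, and the fit without the replicate block called 279 genes against 0 with it. The fits were tested on simulated data for *Fezf2+ve* against *Fezf2−ve*, in which 200 genes differed 3 log2 units up or down. At a dispersion of 0.1 (6330 genes) each fit called all 200 changed genes. At the common dispersion of these data, 1.41 (6074 genes), edgeR with the block called 0 of 200, edgeR without it 13 of 200 and 1 unchanged gene, and DESeq2 102 of 200 and 66 unchanged genes. Every simulated gene had the same dispersion and no animal effect, and the changed genes were drawn from the more abundant ones. Peaks of a gene in a single library were not modelled, so these rates need not hold for the members. DESeq2 1.42.0, other size factors, other filters and leaving out each animal were the alternatives, and leaving out animals 1 and 4 together was added after seeing the data. Python 3.11.15, numpy 2.4.6, pandas 2.3.3 and scipy 1.17.1 were used for the remaining steps.

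Positions, counted from 1, were taken from GENCODE on GRCm38 (mm10) and found for all 38 genes. The members and the gene lists were chosen with earlier results of these data known. Values in every library are given for the 12 members with the most reads; these include the top member of each role and each member with an unadjusted p under 0.05 or a call by DESeq2 or without the block. Of the other genes of the pathway, those with an unadjusted p under 0.05 and the gene with the most reads of most lists are named, together with a few chosen after their values were seen. At this depth, 3 reads in a library corresponded to 13.8 to 33.7 CPM before TMM scaling, which covers counting error only, because PCR reads are not independent molecules.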

Additional observations from a re-analysis of the deposited data

Results flagged for a closer look

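Within a type, 28 groups of 5 levels or totals were searched for a library far from the other 4, and 5 such cases were found. All 5 were in *Fezf2+ve* libraries. The genes are among the 12 members with the most reads, and a single high library can bring a gene onto that list, so no chance rate is given. Of all 1445 genes with at least 100 reads, 33.6% had more than 90% of their reads in 1 library. On the log2(CPM + 1) scale, *Sos1* was at 15.54 in library 4, beside 4.31 to 5.59 in the other 4 *Fezf2+ve* libraries. *Rapgef1* was at 11.63 in library 5, beside 4.71 to 6.02. *Rapgef4* was at 11.62 in library 2, beside 4.60 to 5.79. *Rapgef5* was at 4.64 in library 1, which stood for 3 reads, beside 0 in the other 4. *Ralgapa1* was at 0 in library 4, beside 3.17 to 4.31. The high values of *Ralgps1* and *Nf1* in *Fezf2−ve* lay in more than 1 library, which this search does not find. The causes were not tested.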

How the results depend on the processing

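Calls depended on the fit. Without the replicate block, 279 genes and 1 member were called, and DESeq2 with the block called 98 genes and 1 member, *Rapgef4* in both cases, against 0 genes and 0 members with edgeR and the block. In data simulated with the common dispersion of these libraries for every gene (1.41, 6074 genes, log2 fold changes of 3), edgeR with the block called 0 of 200 changed genes, and 66 of the 168 genes that DESeq2 called were unchanged. That simulation did not model peaks in a single library. The other settings, including an FDR at or below 0.05, gave 0 genes and 0 members. Positive log2 fold changes were found for 7 of 21 members, for 10 of 21 without the replicate block, for 6 of 21 with DESeq2, for 14 of 36 with no filter on low counts, for 4 of 13 with a stricter filter, where other numbers of genes were tested, and for 3 to 9 when 1 animal was left out. The median over the members was between −0.86 and −0.14 in every setting, and that over all tested genes was between −0.31 and −0.02. The log2 fold change of *Ralgps1* was −3.09 to 0.29 when 1 animal was left out (0.28 without animal 1 and 0.29 without animal 4) and 1.33 without both. Without 1 animal it was −0.97 to 0.68 for *Sos1*, −0.86 to 1.22 for *Rapgef1*, −0.75 to 0.57 for *Rasal2*, −1.83 to −0.20 for *Rap1gap2*, −3.21 to −1.32 for *Ralgapb*, −2.35 to −1.07 for *Ralgapa1*, −4.74 to −2.17 for *Nf1*, 2.90 to 5.68 for *Rapgef4*, −7.23 to −2.79 for *Rapgef5* and −0.11 to 1.22 for *Sipa1l1*. Without the replicate block it reversed for *Sos1* (6.85), *Rap1gap2* (0.64), *Sipa1l3* (0.80), *Ralgps2* (0.02) and *Sipa1l1* (−0.14). *Rasal2* also reversed with DESeq2 (−0.11), with the stricter filter (−0.07) and without animals 1 and 4 (−0.30). The cause was not tested. *Nf1*, *Rapgef4*, *Rapgef5*, *Ralgapb* and *Ralgapa1* kept their direction in each setting that was run, but without animals 1 and 4 *Nf1* was at −0.91, *Ralgapb* at −0.83 and *Ralgapa1* at −0.47, against −3.35, −2.24 and −1.59. The summed level kept the sign of its difference except without *Ralgps1* (7144 CPM).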
